A study of Arabidopsis thaliana with 35 samples.

Results

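The genes described here are 10 regulators of leaf polarity, chosen by name from the 28775 genes of the count table: the YABBY genes *FIL* (AT2G45190), *YAB3* (AT4G00180), *YAB2* (AT1G08465) and *YAB5* (AT2G26580), the KANADI genes *KAN1* (AT5G16560) and *KAN2* (AT1G32240), *AS1* (AT2G37630) and *AS2* (AT1G65620), and the HD-ZIP III genes *PHB* (AT2G34710) and *REV* (AT5G60690). All 10 were among the 21115 genes with enough counts to be tested. They were followed in *clf swn* (*cs*) seedlings, which carry *clf-29* and *swn-3* and so lack the PRC2 methyltransferases CLF and SWN, and in wild-type (WT, Col-0) seedlings. Plants were 14 days old. Their shoot apexes were collected 55 h after wounding (W), exposure to 5 µM of the synthetic auxin 2,4-D (A), both (WA) or a DMSO mock (M), with 3 libraries per genotype and treatment, or untreated at 0 h (ctrl), with 6 *cs* and 5 WT libraries. The untreated libraries come as sets C0 and C1 that share replicate numbers, so they may not be independent. The 35 libraries held between 11375703 and 18094983 counted reads.

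The double mutant does not set seed, so its seedlings were picked from segregating families, and its shoot organs differ in shape from those of WT before any treatment. The tissue was what remained after cotyledons and true leaves had been removed, that is, the shoot apical meristem with the axillary meristems and leaf bases. Each library is therefore a mixture of cells, in which fewer cells of a type and less RNA per cell cannot be told apart. *CLF* was at 0.775 to 1.92 CPM (reads of a gene per 1000000 counted reads of the library) in *cs* libraries and at 29.5 to 55.6 CPM in WT libraries. *SWN* was at 18.7 to 33.3 CPM in *cs* libraries and at 39.6 to 68.7 CPM in WT libraries. The meristem genes *STM*, *KNAT1*, *CLV3* and *WUS* summed to 202 to 298 CPM in *cs* libraries and to 114 to 214 CPM in WT libraries. *CLV3* and *WUS* were without a count in WT-WA, and *CLV3* also in WT-A. The 8 leaf mesophyll genes summed to 4830 to 5770 CPM in *cs*-ctrl and 10300 to 11800 CPM in WT-ctrl, and 7 of the 8 were called lower in *cs*-ctrl.

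A leaf primordium has an upper (adaxial) side facing the meristem and a lower (abaxial) side, and the blade grows out where both meet. Adaxial identity rests on the HD-ZIP III transcription factors, which are restricted to the upper side by the small RNAs miR165 and miR166, and on the AS1-AS2 complex, which also keeps class I KNOX meristem genes silent in leaves. Abaxial identity rests on the KANADI factors, which oppose HD-ZIP III activity, and YABBY factors are expressed in the abaxial domain of lateral organs and promote blade growth. YABBY transcripts are in Arabidopsis a common sign of lateral organ rather than meristem identity.

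The small RNA target site in the HD-ZIP III genes is shown because *PHB* and *REV* behaved differently in these data. Below are mature miR165a and miR166a, with the seed (bases 2 to 8) in capitals, and the 21-base sites of the 5 HD-ZIP III transcripts. In the sites, capitals mark bases that do not pair with miR165a when the perfect complement is taken as the standard.
miR165a-3p: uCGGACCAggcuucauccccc
miR166a-3p: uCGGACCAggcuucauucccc
PHB: UUgggaugaagccugguccgG
PHV: UUgggaugaagccugguccgG
REV: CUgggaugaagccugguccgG
ATHB8: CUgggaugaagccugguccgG
CNA: CUggAaugaagccugguccgG
*PHB* and *PHV* carried one and the same site, and *REV* and *ATHB8* shared another, each with 3 bases unpaired with miR165a. The *CNA* site had 4. With miR166a it was the other way round, with 3 unpaired bases for *CNA* and 4 each for *PHB*, *PHV*, *REV* and *ATHB8*. All 5 lay in coding sequence across an exon junction. On TAIR10.1 the *PHB* site spanned chr2:14642530-14642666 on the minus strand and the *REV* site chr5:24398787-24398898 on the plus strand, intron included.

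Promoter windows (250 bases before to 50 bases after the annotated start) were searched on both strands for the letters of the auxin response element, TGTCTC. These stood in 2 of the 10 genes, *YAB2* and *AS1*, against 14.2% of 27443 promoters. Both were called lower in WT-A against WT-M. Also called lower there were *FIL*, *YAB3*, *YAB5*, *KAN1* and *AS2*, whose windows lacked TGTCTC. A link between TGTCTC and the response was not tested. The 100 bases before the start of *YAB2* and *AS1* are shown because they hold these letters. TGTCTC and the GA repeat GAGAGA (on the minus strand read as TCTCTC) are in capitals.
YAB2: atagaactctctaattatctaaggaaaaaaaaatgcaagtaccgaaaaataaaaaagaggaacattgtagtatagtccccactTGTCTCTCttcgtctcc
AS1: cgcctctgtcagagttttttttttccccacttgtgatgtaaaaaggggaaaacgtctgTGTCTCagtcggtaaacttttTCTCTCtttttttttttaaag
The *YAB2* sequence lies at chr1:2675713-2675812 on the plus strand, where both motifs overlap, and the *AS1* sequence at chr2:15783481-15783580 on the minus strand (RefSeq, TAIR10.1). GAGAGA stood in 5 of the 10 windows (*FIL*, *YAB2*, *KAN2*, *AS1* and *AS2*), against 29.2% of all promoters, and the telobox AAACCCTA in 0 of 10, against 6.22%. A match is a description of letters and not a binding site.

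In WT most of the leaf polarity genes were lower after 2,4-D, whereas in *cs* few were. A gene was called changed when its adjusted p was under 0.05 and its log2 fold change was at least 0.6 in either direction. In WT-WA against WT-M, 9 of the 10 genes were called, against 48.0% of all genes tested, and 8 of them were lower, against 25.0% of all genes. The median log2 fold change was -1.79 over the 10 genes and 0 over all genes. In WT-A against WT-M, 8 were called, against 40.4% of all genes, and 7 of them were lower, against 20.7%. With wounding alone (WT-W against WT-M) 3 were called, against 19.1% of all genes. These 3, *FIL*, *YAB3* and *YAB5*, were all lower, against 8.31% of all genes.

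In *cs*, 4 of the 10 genes were called in *cs*-A against *cs*-M (12.2% of all genes), *FIL*, *YAB5* and *PHB* being higher and *AS2* lower. In *cs*-WA against *cs*-M 3 were called (18.3% of all genes), *YAB5* and *PHB* being higher and *KAN2* lower. None was called in *cs*-W against *cs*-M by edgeR or DESeq2 (1.07% of all genes), and 1, *YAB5*, had an unadjusted p under 0.05. The 3 treatments of a genotype were each compared with the same mock libraries. The plot of responses in each genotype shows these values.

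**Figure D1:**
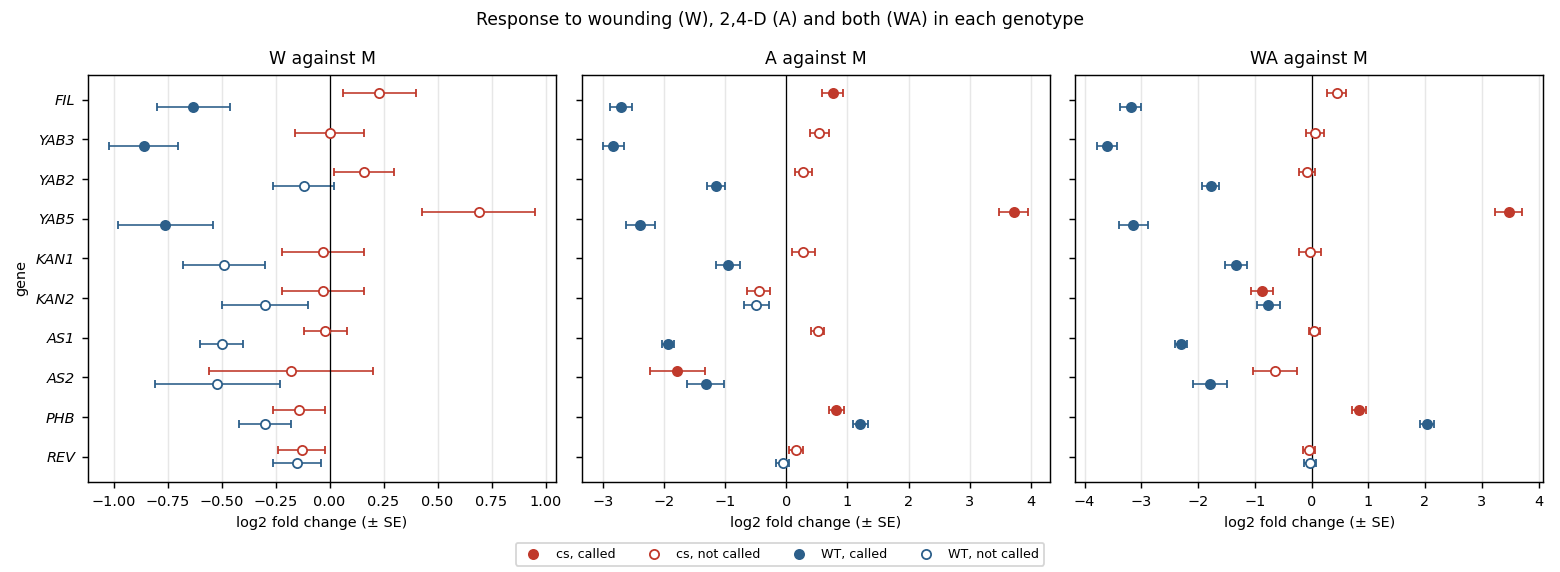
Log2 fold change (x axis, ± SE) of each gene (y axis) in W, A and WA against the mock of the same genotype, *cs* in red and WT in blue, filled where called. In WA the WT points of the 8 genes called lower lie between -3.61 and -0.76, *REV* is near 0 at -0.03, and *YAB5* in *cs* lies at 3.47. The x axis of the W panel covers a shorter range.

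The difference between the genotypes' responses was tested as an interaction, called at an adjusted p under 0.05. For 2,4-D alone it was called in 6 of the 10 genes (44.8% of all genes tested): *FIL*, *YAB3*, *YAB2*, *YAB5*, *KAN1* and *AS1*, all with a higher response in *cs*. For WA it was called in these 6 and in *PHB*, whose response was lower in *cs*, so 7 of 10 (45.2% of all genes). For wounding it was called in *FIL*, *YAB3*, *YAB5* and *AS1*, again with a higher response in *cs* (4 of 10, against 15.1% of all genes).

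Among the YABBY genes, *FIL*, *YAB3* and *YAB5* had the 3 highest genotype by WA interactions of the 10 genes, at 3.63, 3.67 and 6.61 on the log2 scale. *FIL*, the founding abaxial YABBY, was at 5.54, 6.8 and 6.85 CPM in WT-WA, against 54.2, 57.6 and 62.6 CPM in WT-M, so that the groups lay far apart. Its log2 fold change was -3.19 ± 0.18 (SE; edgeR adjusted p = 9.9e-15). In WT-A it was at 6.04, 6.58 and 14.1 CPM and in WT-W at 35.0, 37.0 and 40.1 CPM, both groups entirely below WT-M. In *cs*-WA *FIL* was at 51.2, 57.5 and 58.7 CPM, against 35.7, 39.9 and 40.8 CPM in *cs*-M. This difference missed the fold limit, with a log2 fold change of 0.44 ± 0.17, while that of *cs*-A against *cs*-M (0.76 ± 0.17, edgeR adjusted p = 0.0013) passed it.

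*YAB3*, the closest relative of *FIL*, was at 3.52, 5.2 and 7.23 CPM in WT-WA, against 62.7, 65.2 and 67.3 CPM in WT-M. The log2 fold change was -3.61 ± 0.18 (edgeR adjusted p = 4.1e-16), the largest fall among the 10 genes in this comparison. In *cs* its level hardly differed between *cs*-WA (24.1, 29.7 and 33.8 CPM) and *cs*-M (24.2, 25.6 and 29.8 CPM), and the 2 ranges overlapped. *YAB3* was lower in *cs*-M than in WT-M, by a log2 fold change of -1.26 ± 0.16 (edgeR adjusted p = 2.3e-07). *YAB2*, expressed in leaves like *FIL*, was at 10.5, 11.2 and 14.1 CPM in WT-WA, against 36.3, 43.3 and 43.4 CPM in WT-M (log2 fold change -1.78 ± 0.15). In *cs* none of the treatments called it, and *cs* group means lay between 36.2 and 44.6 CPM.

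*YAB5* moved in opposite directions in the genotypes. It was at 25.0, 25.5 and 33.1 CPM in *cs*-WA, against 1.63, 2.62 and 2.88 CPM in *cs*-M. All *cs*-WA libraries lay far above the *cs*-M libraries, with a log2 fold change of 3.47 ± 0.24 (edgeR adjusted p = 5.7e-12). In *cs*-A it was at 27.6, 32.1 and 35.1 CPM, with a log2 fold change against *cs*-M of 3.72 ± 0.24. In WT it was at 1.04, 1.51 and 1.61 CPM in WT-WA, against 11.8, 12.4 and 12.7 CPM in WT-M (log2 fold change -3.14 ± 0.26). The interaction of genotype and WA was 6.61 ± 0.35 on the log2 scale (edgeR adjusted p = 7.7e-14), the highest of the 10 genes. Before treatment *YAB5* had been lower in *cs*, at 1.69 to 3.58 CPM in *cs*-ctrl (median of 6 libraries 2.65) and 10.5 to 13.1 CPM in WT-ctrl. Wounding left *YAB5* in *cs* at 3.31, 3.36 and 4.37 CPM, so that among the *cs* groups the high levels were found in the 2 with 2,4-D.

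Per exon length, the composition of the YABBY transcripts also differed. The 4 genes summed to 119 ± 12.2 RPKM (CPM divided by exon length in kilobases; SD, n = 3) in *cs*-WA and to 19.6 ± 3.19 RPKM in WT-WA, while the sums were 80.3 ± 3.09 RPKM in *cs*-M and 133 ± 8.01 RPKM in WT-M. *YAB5* made up 20.8% ± 2.02 of the sum in *cs*-WA, against 2.65% ± 0.808 in *cs*-M. In WT it made up 6.26% ± 0.823 in WT-WA and 8.2% ± 0.195 in WT-M. *YAB5* itself was at 24.7 RPKM in *cs*-WA, against 2.11 RPKM in *cs*-M, and *FIL* at 45.5 RPKM in *cs*-WA, against 31.6 RPKM in *cs*-M.

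**Figure D2:**
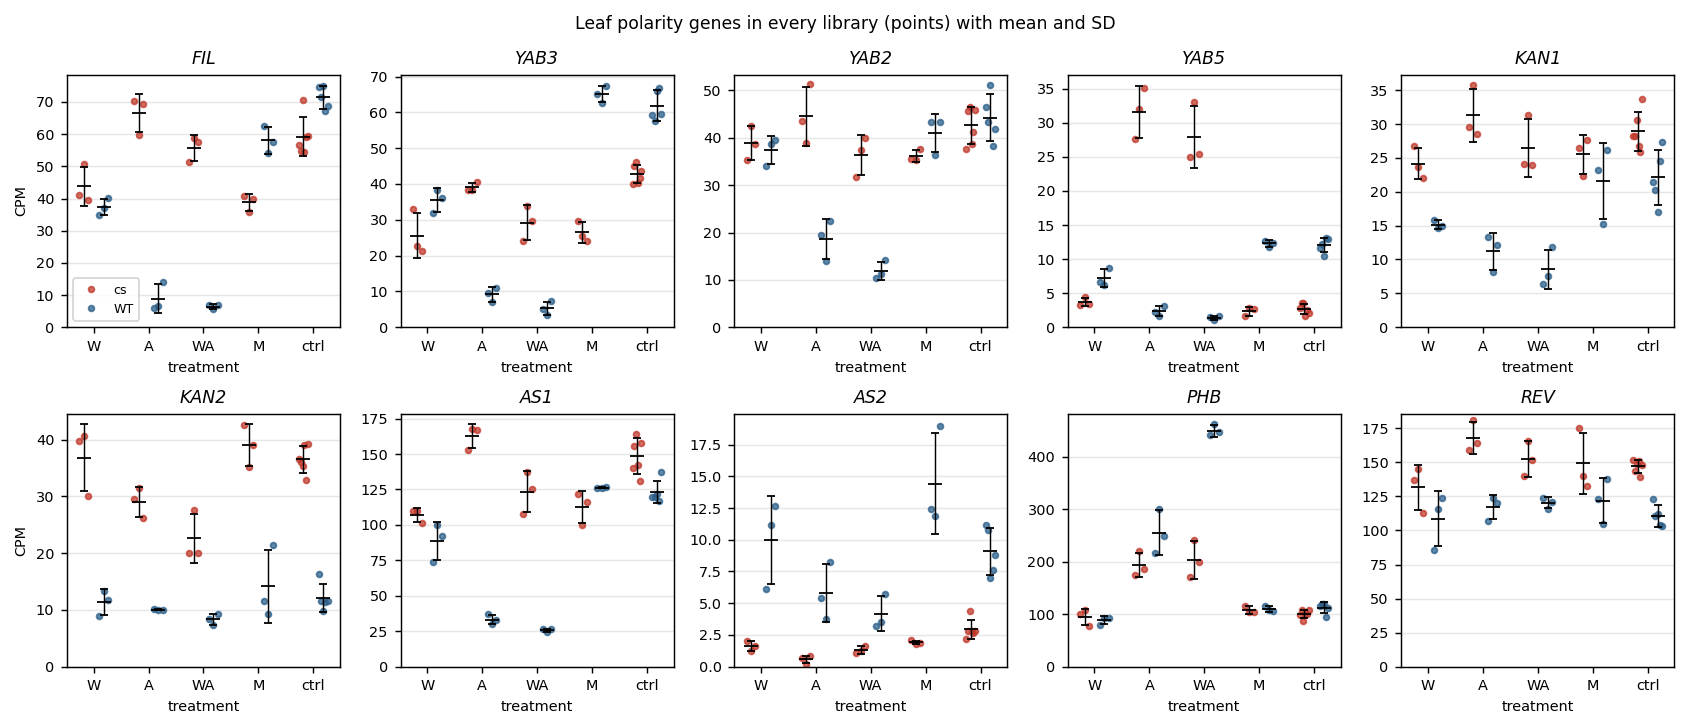
CPM (y axis, from 0) of each gene in every library (points), with mean and SD, by treatment (x axis), *cs* in red left of WT in blue (n = 3; for ctrl 6 *cs* and 5 WT). The WT points of the 4 YABBY genes and *AS1* are low in A and WA, *YAB5* is high in *cs*-A and *cs*-WA, and *PHB* reaches its highest values in WT-WA.

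Among the KANADI genes, which encode GARP-type repressors, *KAN1* followed the YABBY genes with smaller changes. It was at 6.39, 7.5 and 11.8 CPM in WT-WA, against 15.3, 23.2 and 26.2 CPM in WT-M, a log2 fold change of -1.33 ± 0.20 (edgeR adjusted p = 1.2e-06). In *cs*-WA (23.9, 24.1 and 31.4 CPM) and *cs*-M (22.3, 26.5 and 27.7 CPM) the ranges overlapped. *KAN2* differed between the genotypes in every condition, that is, in W, A, WA, M and ctrl. It was at 32.9 to 39.2 CPM in *cs*-ctrl and at 9.75 to 16.3 CPM in WT-ctrl, with a log2 fold change of 1.60 ± 0.14 (edgeR adjusted p = 1.6e-10). It was called higher in *cs* in each of the 5 conditions, with log2 fold changes from 1.40 to 1.78.

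*KAN2* fell in both genotypes with WA, by a log2 fold change of -0.87 ± 0.19 in *cs* and -0.76 ± 0.20 in WT. The WT call rests on 1 mock library at 21.4 CPM, the other two being at 9.34 and 11.6 CPM. Without it the log2 fold change was -0.34 (edgeR adjusted p = 0.091). Other genes overlap 19.3% of the *KAN1* exon bases, and the library kit does not mark the strand of a read. The neighbour in the table, AT5G16550, averaged 33.3 CPM in *cs*-WA, against 31.9 CPM in *cs*-M, and 30.9 CPM in WT-WA, against 33.9 CPM in WT-M.

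*AS1*, a MYB factor and partner of AS2, was at 24.4, 26.3 and 26.4 CPM in WT-WA, against 126, 126 and 127 CPM in WT-M. The log2 fold change was -2.30 ± 0.10 (edgeR adjusted p = 4.8e-17), with the smallest SE of the 10 genes. In *cs* it was at 108, 125 and 137 CPM in *cs*-WA, against 100, 116 and 122 CPM in *cs*-M, so that the ranges overlapped. *ACT1*, which overlaps 17.2% of the *AS1* exon bases, averaged 68.2 ± 4.97 CPM in *cs*-WA, against 61.7 ± 4.9 CPM in *cs*-M, and 56.6 ± 5.09 CPM in WT-WA, against 71.6 ± 9.3 CPM in WT-M (SD, n = 3 each).

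*AS2*, a LOB-domain factor, departed from its partner. It was low in *cs* throughout, at 2.19 to 4.37 CPM in *cs*-ctrl (median of 6 libraries 2.8) and 7.02 to 11.2 CPM in WT-ctrl, a log2 fold change of -1.62 ± 0.23 (edgeR adjusted p = 5.9e-07). It was called lower in *cs* in all 5 conditions, at a log2 fold change of -3.34 ± 0.42 in A and -2.88 ± 0.33 in M. The genotype by A interaction of *AS2* was not called (-0.46 ± 0.54, edgeR adjusted p = 0.5). In *cs*-A *AS2* was at 0.238, 0.675 and 0.797 CPM, that is, 4 to 11 reads, against 1.81, 1.84 and 2.06 CPM in *cs*-M. In WT it was at 3.23, 3.52 and 5.75 CPM in WT-WA, against 11.9, 12.4 and 19.0 CPM in WT-M (log2 fold change -1.79 ± 0.30). *AS2* thus fell in WT along with *AS1*. Within *cs* it was called lower in *cs*-A against *cs*-M (-1.78 ± 0.45, edgeR adjusted p = 0.003) and not in *cs*-WA against *cs*-M (-0.64 ± 0.39). Its level in *cs* was below every WT library of the same treatment.

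The HD-ZIP III genes parted from each other. *PHB*, an adaxial determinant, was at 441, 447 and 463 CPM in WT-WA, against 106, 108 and 116 CPM in WT-M. It was the only gene of the 10 that rose in WT-WA, with a log2 fold change of 2.03 ± 0.12 (edgeR adjusted p = 1.5e-14). In WT-A it was at 216, 249 and 301 CPM, between both, and in WT-W at 80.0, 92.5 and 92.7 CPM. The wounding by 2,4-D interaction in WT was 1.12 ± 0.17 for *PHB* (edgeR adjusted p = 3.1e-05), so the combined response exceeded the sum of the single ones on the log2 scale. It was the only gene of the 10 with this interaction in WT (19.0% of all genes), and with the replicate number as a block *YAB2* joined it (-0.51, edgeR adjusted p = 0.019). None of the 10 had it in *cs* by edgeR or DESeq2 (1.06% of all genes), while 6 had an unadjusted p under 0.05.

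In *cs*, *PHB* was at 170, 199 and 241 CPM in *cs*-WA, against 104, 104 and 116 CPM in *cs*-M, a log2 fold change of 0.83 ± 0.12. Its level in *cs*-WA was lower than in WT-WA, by a log2 fold change of -1.18 ± 0.12 (edgeR adjusted p = 1.2e-09). The genotype by A interaction of *PHB* was -0.40 ± 0.17 (edgeR adjusted p = 0.055), just outside the threshold. It was called in 11 of 43 alternatives, among them the replicate number as a block (-0.39, edgeR adjusted p = 0.034). That of *AS2* for WA (1.15 ± 0.49, edgeR adjusted p = 0.056) was called in 8 of 42, the block included (1.14, edgeR adjusted p = 0.03). *REV*, which acts in the adaxial domain and in vascular and meristem patterning, was at 116, 121 and 124 CPM in WT-WA, against 105, 123 and 138 CPM in WT-M. It was called in none of the 18 comparisons and interactions. In all 5 conditions it was higher in *cs*, with log2 fold changes from 0.31 to 0.54 under the fold limit and edgeR adjusted p from 9.7e-05 to 0.018. Its highest and lowest group means differed by a factor of 1.55. Per exon length, *PHB* exceeded *REV* by a ratio of 4.22 ± 0.26 in WT-WA (SD, n = 3), against 1.03 ± 0.147 in WT-M. In *cs* the ratio was 1.49 ± 0.139 in *cs*-WA and 0.825 ± 0.0678 in *cs*-M.

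The other HD-ZIP III genes carry the same kind of target site. *ATHB8*, active in procambium, rose with WA in both genotypes, to 110 ± 6.08 CPM in *cs*-WA against 37.2 ± 4.53 CPM in *cs*-M, and to 183 ± 7.03 CPM in WT-WA against 66.7 ± 13.8 CPM in WT-M. The log2 fold changes were 1.47 in *cs* and 1.45 in WT. *PHV* was not called in either, with log2 fold changes of 0.31 in *cs* and 0.10 in WT, nor was *CNA*, with 0.52 and 0.17. After 2,4-D alone, *PHV* (0.61), *CNA* (0.80) and *ATHB8* (1.63) were called higher in *cs*, as *PHB* was (0.82), while in WT *PHV* (-0.07) and *CNA* (0.14) were not called and *ATHB8* rose (1.33). *PHB* and *PHV*, with one and the same site, were thus both called higher in *cs*-A, whereas in WT only *PHB* of the pair was. The difference between the 2 genes was not tested. Of 9 precursor genes of miR165 and miR166 only *MIR166A* and *MIR166B* passed the filter on low counts, through their reads in *cs*. *MIR166A* had 10 to 18 reads per library in *cs*-WA and 10 to 17 in *cs*-M, against 2 to 6 in WT-WA and 1 to 5 in WT-M. *MIR166B* had 4 to 17 reads in *cs*-WA and 2 to 8 in *cs*-M, against 0 to 2 in WT-WA and 0 to 1 in WT-M. As both genes passed the filter through *cs*, calls of *cs* over WT were partly fixed by it and are not given as results. Neither was called in *cs*-WA against *cs*-M, and the WT reads are too few to judge a treatment. Libraries of this kind count precursors and not mature small RNAs.

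**Figure D3:**
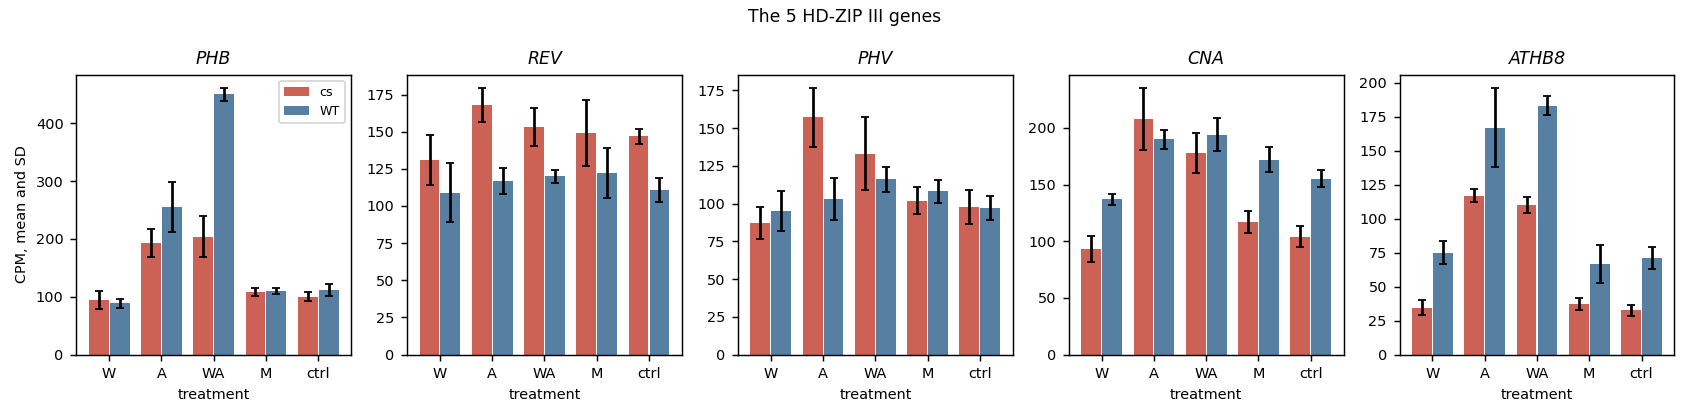
Mean CPM (bars from 0, y axis; error bars SD) of the 5 HD-ZIP III genes by treatment (x axis), *cs* in red left of WT in blue. *PHB* and *ATHB8* are high in A and WA, with *PHB* at 450 CPM in WT-WA, while *REV* stays between 109 and 168 CPM.

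Between the genotypes, the same genes were compared condition by condition. In *cs*-WA against WT-WA, 9 of the 10 were called (43.1% of all genes tested), 7 of them higher in *cs* (23.4% of all genes) and *AS2* and *PHB* lower. The log2 fold changes of the 7 ran from 1.40 for *KAN2* to 4.28 for *YAB5*, with 3.08 for *FIL* and 2.22 for *AS1*. In *cs*-A against WT-A, 8 were called (46.3% of all genes), the same 7 genes higher (23.5% of all genes) and *AS2* lower. Without 2,4-D the picture was another. In *cs*-ctrl against WT-ctrl 3 were called (34.0% of all genes), *YAB5* and *AS2* lower and *KAN2* higher. In *cs*-M against WT-M 4 were called (31.5% of all genes), with *YAB3* in addition, and in *cs*-W against WT-W 4 were called (31.2% of all genes), *YAB5* and *AS2* lower and *KAN1* and *KAN2* higher. The shares without 2,4-D were near those of all genes.

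**Figure D4:**
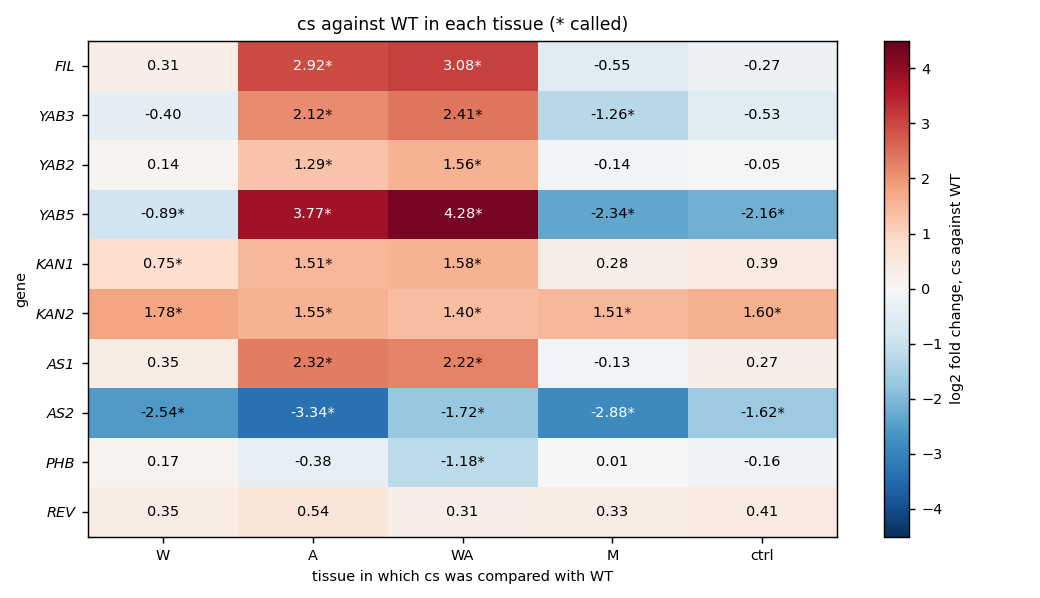
Log2 fold change of *cs* against WT (colour and printed value, * where called) for each gene (rows) in each condition (columns, labelled as tissue). All are shoot apexes. In the A and WA columns 7 genes are higher in *cs*, *YAB5* reaching 4.28, while *KAN2* is higher and *AS2* lower in every column.

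The mock treatment itself changed little. In *cs*-M against *cs*-ctrl 1 of the 10 genes was called, *YAB3*, at a log2 fold change of -0.67 ± 0.14 (edgeR adjusted p = 0.016), with 0.995% of all genes called. The call was lost without *cs*-M replicate 2 (adjusted p = 0.1) or replicate 3 (adjusted p = 0.13), and when untreated libraries of one replicate number were summed (adjusted p = 0.063). In WT-M against WT-ctrl none was called by edgeR or DESeq2 (1.96% of all genes), and *FIL* and *AS2* had an unadjusted p under 0.05.

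The level of each gene before treatment, per exon length, set a wide range. *AS1* was highest, at 77.4 ± 6.74 RPKM in *cs*-ctrl (SD over 6 libraries) and 64.2 ± 4.14 RPKM in WT-ctrl (SD over 5 libraries). *FIL* followed at 48.3 ± 4.93 RPKM in *cs*-ctrl and 58.3 ± 2.89 RPKM in WT-ctrl. *AS2* was lowest, at 1.14 ± 0.289 RPKM in *cs*-ctrl and 3.53 ± 0.729 RPKM in WT-ctrl. Across the 10 groups, the highest group mean exceeded the lowest by a factor of 25.4 for *AS2*, 22.8 for *YAB5*, 12.2 for *YAB3* and 11.2 for *FIL*. WT-WA was the lowest group for 7 of the 10 genes and the highest for *PHB*. In the order of group means of *FIL*, WT-ctrl, *cs*-A, *cs*-ctrl, WT-M and *cs*-WA followed each other with overlapping ranges, then came *cs*-W, *cs*-M and WT-W, and WT-A and WT-WA stood apart below.

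Other genes of the polarity network were taken as 14 short lists with 46 genes, of which 38 could be tested. In WT-WA against WT-M 5 of these rose and 17 fell, beside 23.0% and 25.0% of all genes tested, and in *cs*-WA against *cs*-M 7 rose and 5 fell, beside 9.81% and 8.49%. All 5 CIN-type TCP genes, which promote leaf maturation, fell in WT-WA, *TCP4* by a log2 fold change of -3.79, *TCP10* by -3.63 and *TCP3* by -2.74, and none of the 5 was called in *cs*. Both adaxial HD-ZIP II genes fell in both genotypes, *HAT3* at a log2 fold change of -0.75 in *cs* and -4.39 in WT, and *ATHB4* at -0.83 in *cs* and -3.98 in WT. Both middle-domain WOX genes, which act in blade outgrowth, fell in WT (*WOX1* -4.33, *PRS* -2.94, the last on 0 to 4 reads per library in WT-WA and 15 to 24 in WT-M), while *WOX1* rose in *cs* (1.24). The *AS2* activators *BOP1* and *BOP2* fell in WT (-1.90 and -2.31) and were not called in *cs*.

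On the abaxial side, the auxin response factors *ETT* and *ARF4* rose in *cs*-WA (0.76 and 0.88) and were not called in WT-WA (0.02 and -0.17). *AGO7*, needed for the small RNAs that limit both, fell in *cs* (-1.77) and in WT (-2.25), while the other 3 genes of this machinery were not called in either. The corepressor genes *LUG*, *LUH* and *SEU* were not called in either. Among the LITTLE ZIPPER genes, which encode inhibitors of HD-ZIP III proteins and are their targets, *ZPR4* rose by 1.93 in *cs* and 2.42 in WT, and *ZPR1* by 1.02 in *cs* and 1.61 in WT. *ZPR2* averaged 11.3 ± 2.76 CPM in *cs*-WA, against 23.9 ± 1.93 CPM in *cs*-M, and lay between 0 and 0.13 CPM in WT-WA, against 9.36 ± 3.08 CPM in WT-M. Of all 4 LITTLE ZIPPER genes, 3 were called higher and 1 lower in *cs*-WA, and 2 higher and 2 lower in WT-WA. The gene of this list that is not named was called higher in *cs* and lower in WT. *CRC*, the floral YABBY gene that passed the filter, did so through *cs*, with 872 to 1406 reads in *cs*-WA and 597 to 677 in *cs*-M, against 2 to 3 reads in WT-WA and 6 to 12 in WT-M. Its call in WT-WA (-1.87) rests on these few reads, and it was not called in *cs*-WA (0.57). Of the other KANADI genes *ATS* rose in WT (1.27, against -0.07 in *cs*) while *KAN3* fell in *cs* (-0.74, against -0.03 in WT). *AGO1*, which carries out silencing by small RNAs, fell in WT (-0.88) and was not called in *cs* (-0.41), and *AGO10*, which sequesters both small RNAs, was called in neither (0.48 in *cs* and -0.53 in WT). Of the class I KNOX genes none was called in *cs*, and *KNAT2* fell (-1.37) and *KNAT6* rose (0.75) in WT.

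Markers of some other cell types changed with treatment, while for others the sums overlapped. The 4 meristem genes summed to 114 to 135 CPM in WT-WA and 121 to 170 CPM in WT-M. In *cs* they summed to 228 to 261 CPM in *cs*-WA and 250 to 298 CPM in *cs*-M. Of the 3 meristem genes tested, 1 was called lower in WT-WA against WT-M and 0 in *cs*-WA against *cs*-M. The 8 leaf mesophyll genes summed to 613 to 791 CPM in WT-WA, 861 to 1320 CPM in WT-A and 3250 to 5550 CPM in WT-W, against 9230 to 11200 CPM in WT-M. All 8 were called lower in WT-WA and 7 of 8 in WT-A. In *cs* the sum was 2780 to 3970 CPM in *cs*-WA, 3440 to 5620 CPM in *cs*-A and 4950 to 6230 CPM in *cs*-M, and 4 of 8 were called lower in *cs*-WA. The 4 lateral root and callus founder genes summed to 37.1 to 47.6 CPM in *cs*-WA and 2.14 to 2.42 CPM in *cs*-M, and to 75.6 to 92.4 CPM in WT-WA and 0.442 to 0.621 CPM in WT-M. The 5 floral organ genes, all called higher in *cs*-ctrl, summed to 511 to 593 CPM there and to 7.84 to 17.8 CPM in WT-ctrl. The 4 organ boundary genes summed to 57.4 to 74.5 CPM in *cs*-WA and 4.28 to 6.55 CPM in WT-WA, all 4 being called higher in *cs*-WA. The 6 root tip genes summed to 152 to 175 CPM in *cs*-WA and 79.7 to 85.2 CPM in *cs*-M. In WT they summed to 194 to 218 CPM in WT-WA and 72.6 to 92.1 CPM in WT-M. *CASP1* was at 0 in WT-WA and in *cs*-WA. Of the 6, 4 were called higher and 2 lower in WT-WA against WT-M, and 4 higher in *cs*-WA against *cs*-M. The 5 vascular genes summed to 72.7 to 94.2 CPM in *cs*-WA and 74.5 to 94.9 CPM in *cs*-M, and to 79.2 to 102 CPM in WT-WA and 56.4 to 68.9 CPM in WT-M. Of these 5, 1 was called higher and 2 lower in *cs*-WA against *cs*-M, and 2 were called higher in WT-WA against WT-M. The part of these changes in cell makeup in the values of the polarity genes was not tested.

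Likeness was measured as Pearson's r of group mean log2(CPM + 1) over the 10 groups, against 10933 tested genes whose group means spanned at least 1 on that scale. The 10 points share libraries and treatments, and r is given as a description. Among the genes most like *FIL* was *AS1* (r = 0.985), after *HEMF2* (0.986) and *EMB3103* (0.985). *AS1* was most like *BBX12* (0.995), AT2G22650 (0.991) and *GRF5* (0.991), a growth-regulating factor. *YAB5* had the least similar leading genes, *ABCG4* (0.958), *MYB92* (0.945) and AT4G33810 (0.928). *YAB3* was most like AT2G15292 (0.987), AT1G02150 (0.987) and *DRB3* (0.985), and *YAB2* most like *TBL6* (0.99), *EMB1417* (0.99) and *HB25* (0.988).

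For *KAN1* the leading genes were AT5G06670 (0.993), AT5G65740 (0.989) and AT3G20015 (0.989), and for *KAN2* *TTL2* (0.994), *ATSYTF* (0.993) and AT5G12270 (0.993). *AS2* was most like *GAE6* (0.985), *ABCB9* (0.98) and *XTH4* (0.975), and *PHB* most like AT1G55830 (0.987), AT1G51405 (0.985) and AT1G02380 (0.975). *REV* itself spanned less than 1, and its leading genes were AT1G68872 (0.974), *MSH6* (0.97) and AT2G43700 (0.968). Among the 10 genes themselves, r was 0.98 between *FIL* and *AS1* and 0.97 between *FIL* and *YAB2*, but -0.24 between the partners *AS1* and *AS2*, and -0.73 between *FIL* and *PHB*. *PHB* and *REV* had an r of 0.06.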

How the data were processed

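RNA of shoot apexes was sequenced in 35 libraries. The authors trimmed reads with Trimmomatic 0.32, aligned them to TAIR10 with TopHat2 2.0.10, restricted mapping to one place per read and used HTSeq for the counting, and the deposited table gives raw counts, not normalized. The kit (TruSeq v2) does not mark strand. Columns marked C2 were read as mock, and deposited column names were kept where the study's read totals for WT and *cs* wounding replicate 2 stand the other way round.

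The tests used edgeR 4.0.16 under R 4.3.3 (filterByExpr, TMM, quasi-likelihood F test) in 1 model of 10 groups, with Benjamini-Hochberg adjustment over 21115 genes. CPM used each library's total. SE are of the fitted log2 fold change. On simulated data, 96% of 200 genes changed in *cs*-WA against WT-WA were recovered and 7 others called. For the genotype by A interaction it was 85% of 200, with 9 others called. The raised genes had a median log2 fold change of 1.99, and genes with few reads were not changed. Recovery of smaller changes, or of genes with few reads, was not tested.

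The 10 genes and the lists of other genes were chosen with earlier results of these data known. Named are all 10, up to 3 genes per list with the largest change, the 3 most alike, *CLF* and *SWN*, and marker genes used to check the tissue. Sequences, exon lengths and overlaps came from RefSeq TAIR10.1, matched by gene name. In *PHB* 0.389% of 50-base words were repeated, in the other 9 genes 0%.

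Replicates were made at different times and each number was sequenced in one lane, per the study's methods, so numbers pair the samples. Deviations from group means correlated at a median of 0.0464 over 182 pairs with the same number and -0.0262 over 364 with another. Untreated libraries come as sets C0 and C1 that share numbers, so they may not be independent. Alternatives were RLE, DESeq2 1.42.0, other filters, the replicate block, only the groups compared, set C0 alone, summed untreated libraries, other call rules and leaving out each library.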

Additional observations from a re-analysis of the deposited data

Results flagged for a closer look

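4 values of 3 untreated libraries stood apart from the rest of their group, among 20 groups of 5 or 6 values examined, where chance gives about 1 in 20. *FIL* was at 70.7 CPM and *AS2* at 4.37 CPM in *cs*-ctrl library C0-3, the others of the group being at 54.4 to 59.5 CPM and at 2.19 to 2.83 CPM. *KAN2* was at 16.3 CPM in WT-ctrl library C0-1 (others 9.75 to 11.5 CPM), and *AS1* at 137 CPM in WT-ctrl library C1-2 (others 117 to 122 CPM).

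The response of *cs* differed from that of WT, by edgeR's test of the interaction, in 17 of 30 gene and treatment pairs. Of all genes tested, 15.1% had this interaction for wounding, 44.8% for 2,4-D and 45.2% for both. For wounding the interaction on the log2 scale was 0.85 for *FIL*, 0.86 for *YAB3*, 1.45 for *YAB5* and 0.48 for *AS1*. For 2,4-D it was 3.47 for *FIL*, 3.38 for *YAB3*, 1.43 for *YAB2*, 6.10 for *YAB5*, 1.23 for *KAN1* and 2.45 for *AS1*. For both it was 3.63 for *FIL*, 3.67 for *YAB3*, 1.71 for *YAB2*, 6.61 for *YAB5*, 1.30 for *KAN1*, 2.35 for *AS1* and -1.20 for *PHB*. The 3 interactions share the mock libraries.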

How the results depend on the processing

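None of the alternatives run turned round the direction of a called value. With the replicate block, 177 of 180 values kept their call and 3 gained one, and the number of genes with a wounding by 2,4-D interaction in WT was 2, as with at least 10 counts in every library. In *cs*-M against *cs*-ctrl, 2 genes were called with no filter or only the groups compared, 0 with summed untreated libraries or the fold rule between every pair of replicates, and 3 by the adjusted p alone. The adjusted p alone called 7 genes in *cs*-ctrl against WT-ctrl, 7 in *cs*-W against WT-W and 6 in WT-W against WT-M. For the alternatives the share of all genes called was not counted, so these numbers are no result about the polarity genes. The fold rule between every pair of replicates ended the calls of *YAB5* and *KAN1* in *cs*-W against WT-W (2 left). In *cs*-A against *cs*-M it ended those of *FIL* and *PHB* (2 left), and in *cs*-WA against *cs*-M those of *KAN2* and *PHB* (1 left). In WT-W against WT-M it ended those of *FIL* and *YAB5* (1 left). It also ended the calls of *KAN1* and *AS2* in WT-A against WT-M (6 left) and of *KAN1* and *KAN2* in WT-WA against WT-M (7 left). Leaving out 1 library at a time gave 0 to 2 genes in *cs*-M against *cs*-ctrl and 1 to 2 for the wounding by 2,4-D interaction in WT, and changed 31 of 6300 calls. Without *cs*-W replicate 2 the interaction of *FIL* with wounding had an adjusted p of 0.052, and that of *AS1* 0.068 without *cs*-M replicate 2 and 0.054 without WT-W replicate 1. *FIL* in WT-W lost its call without WT-M replicate 1 (-0.57). With only the groups compared, *KAN2* in WT-WA against WT-M had an adjusted p of 0.057. Leaving out 1 library gained 24 calls. They were the genotype by A interaction of *PHB* (6 libraries, down to -0.51 without WT-A replicate 1), the genotype by WA interaction of *AS2* (6, up to 1.47 without WT-WA replicate 3), *FIL* in *cs*-M against *cs*-ctrl (4, down to -0.62), the wounding by 2,4-D interaction of *YAB2* in WT (without WT-A replicate 2, -0.65, or WT-WA replicate 3, -0.66), *FIL* for the wounding by 2,4-D interaction in WT without WT-A replicate 3 (0.64), *KAN2* in WT-A against WT-M without WT-M replicate 1 (-0.60) or 2 (-0.72), *KAN1* in WT-W against WT-M without WT-M replicate 2 (-0.69), *YAB3* in *cs*-A against *cs*-M without *cs*-M replicate 1 (0.62) and in *cs*-W against WT-W without *cs*-W replicate 1 (-0.61). With set C0 alone, *KAN1* was called in *cs*-ctrl against WT-ctrl (0.63). With 3 libraries per group, *AS2* in *cs*-A rests on few reads.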
